A study of Mus musculus with 4 samples.

Results

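RNA of 7 oncofetal liver genes (Afp, Gpc3, Ly6d, Cd63, Dlk1, Igf2bp3 and Golm1) was measured by bulk mRNA-seq of mouse liver. The genes were found by their symbols in the deposited table, where they are 7 of 13903 listed genes. The set was selected on high CPM in the OGT-KO-labelled libraries, after these values were known, so the comparison of the labels is a description and not a finding. All mice carried floxed alleles of Ogt, the gene of O-GlcNAc transferase, on the C57BL/6J background, and all were fed a CDE (choline-deficient, ethionine-supplemented) diet, a model of liver injury. Those labelled OGT-KO received AAV8-TBG-CRE, a virus whose TBG promoter drives Cre recombinase in hepatocytes and not in other liver cells, and those labelled control received AAV8-TBG-eGFP. Samples were collected either without recovery or 7 days into recovery. A single library, pooling RNA of 3 mice, stands for each of the 4 conditions, so no value has a replicate error, no difference has a replicate check and no test of the conditions was possible.

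Oncofetal genes are active in the fetal liver, are silenced or kept low in adult hepatocytes after birth, and reappear in liver cancer or in a regenerating liver. Afp, made by fetal hepatoblasts and yolk sac, is the classic example and is used as a serum marker of HCC (hepatocellular carcinoma). Gpc3, Dlk1 and Golm1 are likewise used as markers of hepatoblasts or of HCC, whereas Ly6d and Cd63 are also made by healthy adult cells of other kinds. No fetal liver and no tumor was among the libraries, so fetal or tumor character itself was not measured.

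The deposited values are CPM (reads per gene as a share of 1000000 in each library), and they could be turned back into whole reads. The libraries held 19972699 to 22866431 reads on listed genes, and 3 reads, the smallest number taken as detectable, were worth 0.131 to 0.150 CPM. By CPM, the targeted gene went against its label at one time point. Without recovery, Ogt stood at 55.3 CPM in the OGT-KO-labelled library and 64.7 CPM in the control, and after 7 days it had 77.7 and 55.7 CPM. As a difference of log2(CPM + 1), Ogt was at 0.47 after 7 days, close to the 0.48 median of genes averaging 10 CPM or more. With no recovery it was at -0.22, below the median of 0.51. These are values of the whole gene in whole liver, and they do not separate hepatocytes from other cells or the deleted exons from the rest. The labels are therefore used below only as names of the libraries, and every direction drawn from them rests on the labels.

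Each of the 7 genes was higher in both OGT-KO-labelled libraries than in both control libraries. Afp, which encodes alpha-fetoprotein, an albumin-like carrier protein secreted into blood, stood at 363 times its control level with no recovery and at 1055 times after 7 days. Ly6d was 139-fold and 609-fold higher, Gpc3 55.8-fold and 40.7-fold, Cd63 49.0-fold and 39.4-fold, Golm1 9.61-fold and 22.7-fold, and Igf2bp3 8.99-fold and 4.35-fold, while Dlk1 had no read in either control. Both OGT-KO-labelled libraries stood above both controls for 74.4% of all listed genes, so a pattern of no overlap was common in these libraries.

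**Figure D1:**
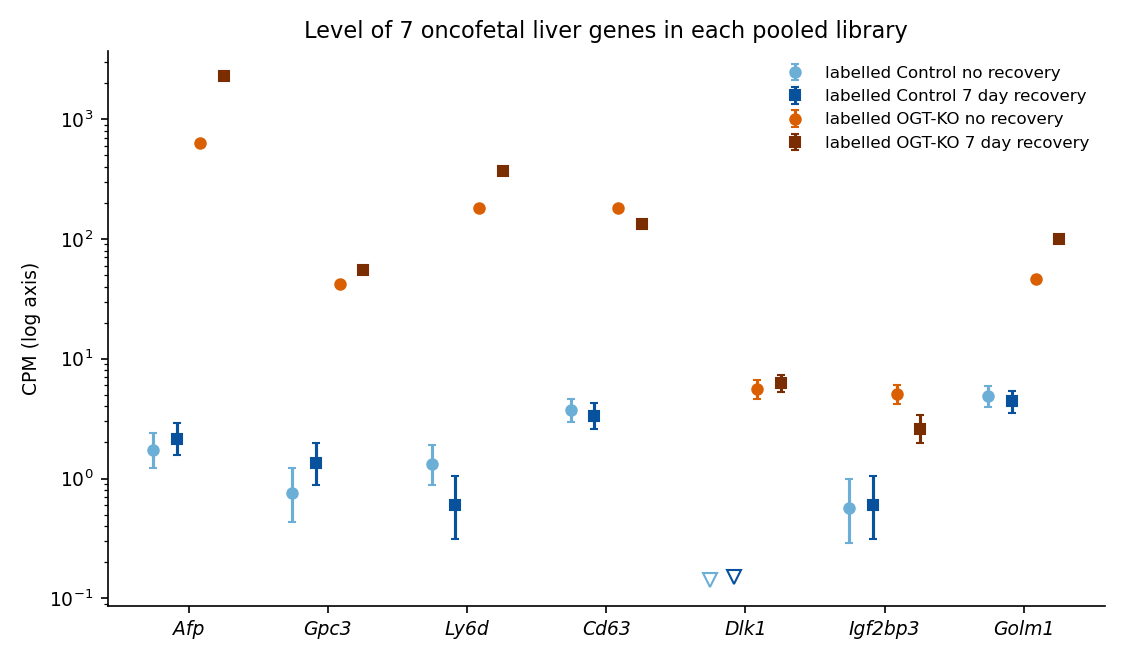
CPM of each of the 7 genes (log axis) in the 4 libraries, with 1 point per library and bars for the 95% exact counting interval, which covers counting error only. For every gene both points labelled OGT-KO lie above both control points, and Dlk1, with 0 reads in the controls, is drawn there as an open triangle at the value of 3 reads.

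The promoter windows of 3 of the genes are shown because they span the range found among the 6 with a window: Afp holds matches to several motifs of liver transcription factors, Cd63 holds 2 copies of an HNF1 motif, and Gpc3 is GC-rich and holds none of the motifs searched. RefSeq windows of 250 bases before to 50 after the start site were found for 6 of the 7 genes, all but Ly6d. They are given on GRCm38.p6, 5′ to 3′ on the gene's own strand, with capitals at each motif match. The Afp window is chr5:90490464-90490763 on the plus strand, that of Cd63 is chr10:128909095-128909394 on the plus strand, and that of Gpc3 is chrX:52613925-52614224 on the minus strand.
Afp: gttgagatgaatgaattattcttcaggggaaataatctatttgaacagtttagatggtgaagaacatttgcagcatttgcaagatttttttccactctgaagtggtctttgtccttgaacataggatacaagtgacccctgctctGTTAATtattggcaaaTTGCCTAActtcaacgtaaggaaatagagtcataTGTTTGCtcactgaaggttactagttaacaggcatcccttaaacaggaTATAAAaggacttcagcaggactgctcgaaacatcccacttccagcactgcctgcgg
Cd63: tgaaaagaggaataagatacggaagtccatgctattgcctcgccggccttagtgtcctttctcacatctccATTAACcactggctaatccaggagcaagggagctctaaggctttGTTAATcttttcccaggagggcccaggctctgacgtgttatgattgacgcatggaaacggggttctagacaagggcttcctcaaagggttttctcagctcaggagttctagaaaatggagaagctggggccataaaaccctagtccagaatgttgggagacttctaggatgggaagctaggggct
Gpc3: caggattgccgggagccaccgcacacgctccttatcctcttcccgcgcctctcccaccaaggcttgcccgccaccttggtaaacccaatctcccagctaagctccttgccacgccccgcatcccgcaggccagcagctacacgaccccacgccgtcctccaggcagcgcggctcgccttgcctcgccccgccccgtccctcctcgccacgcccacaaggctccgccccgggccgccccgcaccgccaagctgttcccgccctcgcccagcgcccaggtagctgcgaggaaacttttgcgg

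Motifs were searched on both strands, and no match below overlaps another. The Afp window held 1 match each to TATAAA (known as the TATA box), GTTAAT (bound by HNF1), TGTTTGC (bound by FOXA factors) and TTGCNNAA (bound by C/EBP factors), which occur in 13.6%, 7.1%, 5.07% and 10.8% of the 32851 windows in the RefSeq table. Cd63 held GTTAAT on each strand, the minus-strand copy reading ATTAAC. The Dlk1 window held 2 copies of TGTTTAC, a FOXA motif found in 3.65% of windows, and that of Golm1 held TATAAA once, on the minus strand. No match to any of the motifs was found for Gpc3 or Igf2bp3. Matches to CAAAGTCCA (HNF4), GGAATG (TEAD) and TGANTCA (AP-1), present in 0.475%, 14.7% and 7.81% of all windows, were found in none of the 6. The share of G and C was 40% in the Afp window, below the median of 52.7% over all windows, and 70.7% in that of Gpc3. A match is a string of letters and not evidence that a factor was bound, which was not measured.

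Afp (ENSMUSG00000054932) had 632 CPM in the OGT-KO-labelled library and 1.74 CPM in the control with no recovery, and 2272 and 2.15 CPM after 7 days. The controls held 37 and 43 Afp reads, and the OGT-KO-labelled libraries held 14463 and 51268. The ratios were 363 (95% exact interval of the ratio 264 to 516) and 1055 (783 to 1458); these intervals, here and below, cover counting error only. By CPM, which also rises with transcript length, Afp ranked 146th in the OGT-KO-labelled library with no recovery and 35th after 7 days, against 11009th and 10486th in the controls. These ranks are among all 13903 listed genes. For every 1000 reads of Alb, the gene of albumin, there were 15.3 and 44.1 reads of Afp in the OGT-KO-labelled libraries and 0.0364 and 0.0396 in the controls.

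Golm1 (ENSMUSG00000021556) encodes GP73, a Golgi membrane protein whose cleaved form is found in serum in liver disease. It had 46.6 CPM in the OGT-KO-labelled library and 4.85 CPM in the control with no recovery, and 100.2 and 4.41 CPM after 7 days. The controls held 103 and 88 reads, more than for any other of the 7 genes, and the ratios were 9.61 (7.85 to 11.9) and 22.7 (18.4 to 28.5).

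Gpc3, Ly6d and Dlk1 encode proteins of the cell surface. Gpc3 (ENSMUSG00000055653), a heparan sulfate proteoglycan held by a GPI anchor, had 42.0 CPM in the OGT-KO-labelled library and 0.753 CPM in the control with no recovery, and 55.1 and 1.35 CPM after 7 days. The ratios were 55.8 (34.2 to 98.0) and 40.7 (27.9 to 62.1), and these intervals overlap widely, since the controls held only 16 and 27 reads. Ly6d (ENSMUSG00000034634), a small GPI-anchored protein of the Ly6 family that marks early B lineage cells and some epithelia, had 182 CPM against 1.32 CPM with no recovery and 366 against 0.601 CPM after 7 days. Its ratios were 139 (95.7 to 209) and 609 (348 to 1179), on 28 and 12 control reads. Among the 6 genes with control reads, Ly6d was second to Afp by ratio at both time points.

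Dlk1 (ENSMUSG00000040856), a transmembrane protein of the Notch ligand family that marks hepatoblasts, had 5.55 CPM (127 reads) and 6.25 CPM (141 reads) in the OGT-KO-labelled libraries. No Dlk1 read was found in either control, where 3 reads, the floor used here, are worth 0.141 CPM with no recovery and 0.150 CPM after 7 days, and the 95% exact intervals of 0 reads reach 0.174 and 0.185 CPM. Against the floor per library, Dlk1 was at least 39.4-fold higher with no recovery and at least 41.6-fold higher after 7 days, and the exact intervals of the ratio start at 31.5 and 33.4. Of the 13903 genes, 239 and 276 had no read in these controls.

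Cd63 (ENSMUSG00000025351), a tetraspanin of late endosomes, lysosomes and exosomes, had 182 CPM in the OGT-KO-labelled library and 3.72 CPM in the control with no recovery, and 132 and 3.35 CPM after 7 days. The ratios were 49.0 (39.2 to 62.0) and 39.4 (30.9 to 50.9). Cd63 has an annotated pseudogene copy, and how reads matching both were counted is not given in the sources used here, so its values are uncertain to that extent.

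Igf2bp3 (ENSMUSG00000029814), an RNA-binding protein of fetal tissues that binds Igf2 mRNA and other transcripts, had 5.07 CPM against 0.564 CPM with no recovery, and 2.61 against 0.601 CPM after 7 days. The ratio of 8.99 (4.95 to 17.9) with no recovery and of 4.35 (2.31 to 8.89) after 7 days rests on 12 reads in each control.

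To compare the levels of the 7 genes with each other, CPM per kb of the principal transcript was used. With no recovery in the OGT-KO-labelled library, Afp came first at 307 CPM per kb, then Ly6d at 245, Cd63 at 164, Gpc3 at 18.9 and Golm1 at 11.8. Dlk1 and Igf2bp3 followed at 1.19 and 1.17 CPM per kb, and their counting intervals overlapped (0.995 to 1.42 and 0.965 to 1.40). After 7 days the order labelled OGT-KO was Afp at 1101, Ly6d at 492 and Cd63 at 119 CPM per kb, followed by Golm1 at 25.3 and Gpc3 at 24.9, whose intervals overlapped, then Dlk1 at 1.34 and Igf2bp3 at 0.602. In the controls Cd63 led, at 3.35 and 3.02 CPM per kb, and Afp stood at 0.844 and 1.04. Igf2bp3 and Dlk1 came last in every library.

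To place the genes among all others, the difference of log2(CPM + 1) between 2 libraries was taken, on which low genes show less than their true fold, and a gene was called at a 2-fold difference (1 on this scale). Only the 8963 genes averaging 10 CPM or more were compared, and Afp, Ly6d, Cd63, Gpc3 and Golm1 are among them only through their level in the OGT-KO-labelled libraries. All 5 were called higher at each time point, where 24.4% of all compared genes were with no recovery and 22.9% after 7 days. Without the filter Dlk1 and Igf2bp3 were past 2-fold as well, where 33.1% and 32.3% of all genes were. These counts follow from the choice of the genes. The median of all compared genes was itself shifted, by 0.51 with no recovery and 0.48 after 7 days. It became -0.19 and -0.18 when libraries were scaled by median ratios, and the 2185 genes called higher and 510 called lower with no recovery became 935 and 1381, and the 2050 and 383 after 7 days became 1038 and 1055. Upper-quartile scaling gave 1208 higher and 981 lower, and 1215 and 740.

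On this log2 scale Afp had the largest difference in the higher direction of all compared genes at both time points, 7.85 and 9.49. Ly6d ranked 3rd with no recovery (6.31) and 2nd after 7 days (7.84). Cd63 ranked 11th (5.28) and 30th (4.93), Gpc3 35th (4.62) and 46th (4.58), and Golm1 233rd (3.02) and 75th (4.23). The genes under the filter were lower on this scale, Dlk1 at 2.71 and 2.86 and Igf2bp3 at 1.96 and 1.17.

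**Figure D2:**
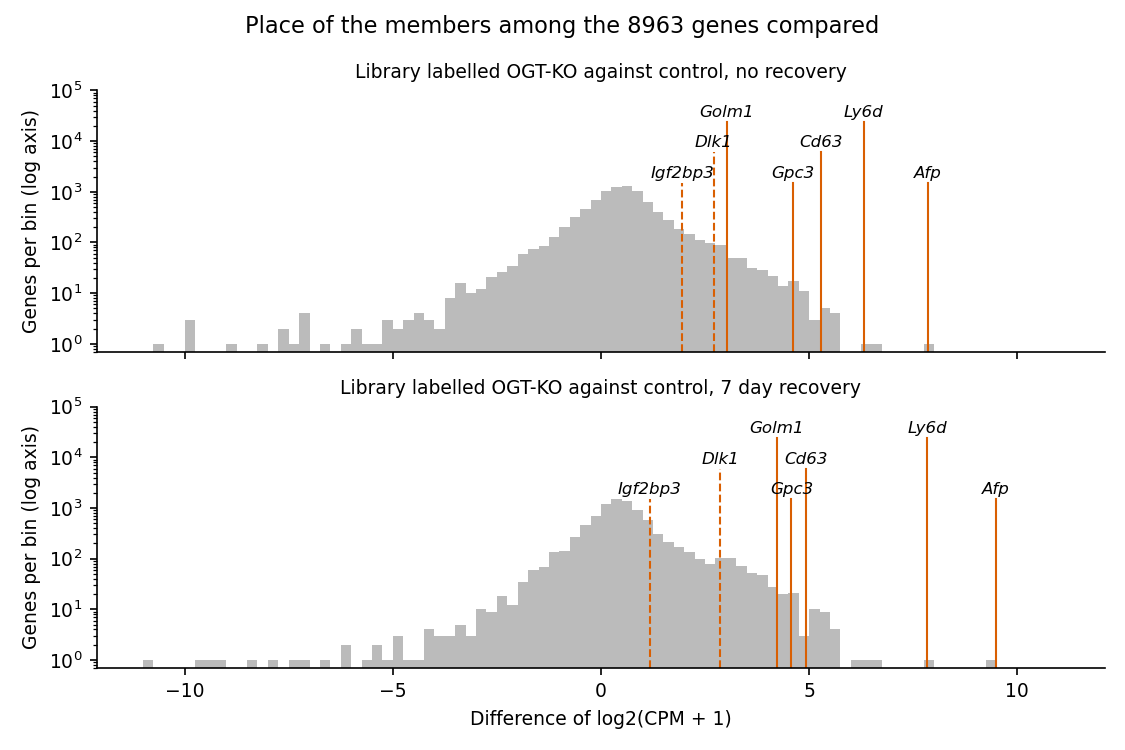
Histogram of the difference of log2(CPM + 1) between the OGT-KO-labelled and control library for the 8963 compared genes (horizontal axis; genes per bin on a log vertical axis), with no recovery above and 7 day recovery below, and lines at the 7 genes (the members), dashed for Dlk1 and Igf2bp3, which are under the filter. Line heights have no meaning, and Afp lies at the right end of each panel, at 7.85 and 9.49.

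Recovery from the diet was compared within each label, which the choice of the genes did not use directly. The same libraries served the choice, so this comparison too is a description. In the control libraries the log2 difference ran from -0.53 (Ly6d) to 0.42 (Gpc3), and 0 of the 5 compared genes were called, where 0.245% of all compared genes were called higher and 0.96% lower. The control levels are so low that adding 1 CPM compresses these differences, and the CPM ratios themselves were 0.456 (0.211 to 0.926) for Ly6d and 1.80 (0.933 to 3.57) for Gpc3, and 0.903 to 1.24 for Afp, Cd63, Golm1 and Igf2bp3. In the OGT-KO-labelled libraries, Afp was higher after 7 days by 1.84 (CPM ratio 3.59, 3.53 to 3.66) and Golm1 by 1.09 (ratio 2.15, 2.00 to 2.32), and these 2 were called, where 1.04% of all compared genes were called higher and 0.435% lower. Ly6d lay at the edge of the call, with a log2 difference of 0.9996 and a CPM ratio of 2.00 (1.93 to 2.08). Gpc3 differed by 0.38 and Dlk1 by 0.15. Cd63 and Igf2bp3 lay the other way, at -0.46 and -0.75. The 7 genes thus did not move as one between the time points labelled OGT-KO, and without replicates it is not known how far pools of other mice would differ.

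**Figure D3:**
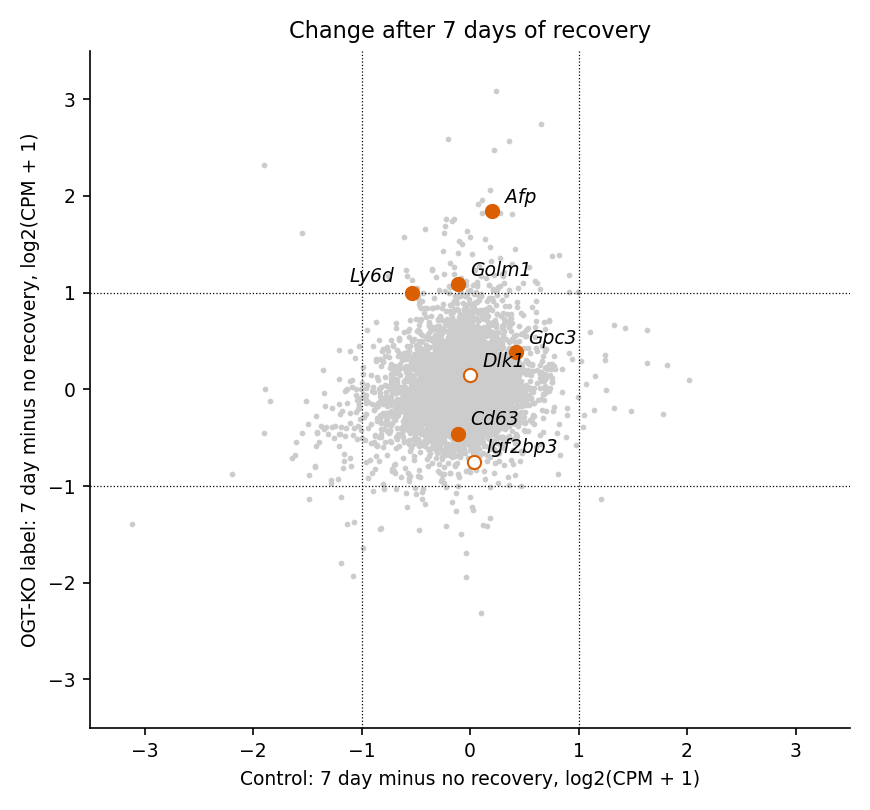
Log2 difference between 7 day recovery and no recovery in the OGT-KO-labelled libraries (vertical axis) against that in the control libraries (horizontal axis), 1 point per compared gene, with the 7 genes named (open circles for Dlk1 and Igf2bp3, under the filter), dotted lines at 2-fold, and 2 genes beyond the axes not drawn. Afp (0.20 and 1.84), Golm1 (-0.11 and 1.09) and Ly6d (-0.53 and 0.9996) lie high and near the middle of the horizontal axis.

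The change from no recovery to 7 days in the difference between labels was 1.64 for Afp, 1.53 for Ly6d and 1.20 for Golm1, past 2-fold, as it was in the higher direction for 2.09% of all compared genes. It was -0.04 for Gpc3, 0.15 for Dlk1, -0.34 for Cd63 and -0.78 for Igf2bp3. For Ly6d part of it came from the controls, where 28 reads with no recovery and 12 after 7 days were found. The change includes the OGT-KO-labelled values on which the genes were chosen. Afp, Ly6d and Golm1 are also compared only through those values, so the change is a description and not a finding.

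For each of the 7 genes the compared genes with the most similar pattern were found by Euclidean distance between centred log2(CPM + 1) values over the 4 libraries, which describes 4 points and no more. Gpc3 was nearest to Epcam (distance 0.068) and Spp1 (0.081), both made by bile duct cells and by liver progenitors. For every 100 Epcam reads there were 65.4 Gpc3 reads in the OGT-KO-labelled library with no recovery and 66.6 after 7 days, against 48.5 (24.9 to 90.6) and 57.4 (34.4 to 94.1) in the controls. Since Epcam was picked for its likeness to Gpc3 over these same libraries, a ratio that varies little follows from the choice. Dlk1 was nearest to Atp8b2 (0.075) and Chmp4c (0.080). Adding 1 CPM compresses the differences of low genes, so a near pattern need not mean a like CPM ratio. With no recovery Atp8b2 had 22.1 CPM labelled OGT-KO and 2.54 in the control, whereas Dlk1 had 5.55 and 0. Igf2bp3 was nearest to Ccng1 (0.112), a target of p53, and Lonp1 (0.141), a mitochondrial protease. Golm1 was nearest to Robo2 (0.208) and Svep1 (0.244), and Cd63 to Fndc10 (0.236) and Slc7a11 (0.361), a cystine transporter. Afp and Ly6d had no close neighbor: the nearest to Afp was Ly6d, at 1.78, then Plat at 2.83, and the nearest to Ly6d were Plat (1.20), the gene of tissue plasminogen activator, and Col1a1 (1.43), a collagen chain.

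Of 15 transcription factors known to act on Afp or on the genes beside it, 1 was called higher with no recovery (Trp53, 1.45) and 2 lower (Foxa1, -1.57, and Hnf4a, -1.34), and after 7 days 1 was higher (Trp53, 1.10) and 1 lower (Cebpa, -1.07), but under median-ratio scaling none was higher and 8 and 6 were lower. Of all compared genes, 24.4% were called higher and 5.69% lower with no recovery, and 22.9% and 4.27% after 7 days. Under median-ratio scaling these shares were 10.4% higher and 15.4% lower with no recovery, and 11.6% and 11.8% after 7 days. The list had a median log2 difference of -0.31 and -0.08, below the 0.51 and 0.48 of all compared genes. Hnf4a, a master factor of mature hepatocytes, had 335 CPM in the OGT-KO-labelled library and 851 in the control with no recovery, and 458 and 864 CPM after 7 days. The factors known to repress Afp after birth were not called: Zhx2 differed by 0.19 and 0.47, Zbtb20 by 0.24 and 0.18 and Zfhx3 by 0.61 and 0.77. Their signs depended on the scaling, and with median ratios Zhx2 was at -0.51 and -0.19, Zbtb20 at -0.48 and -0.50 and Zfhx3 at -0.09 and 0.11.

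The relatives of the genes did not share the size of their differences. Afp lies in a cluster of related genes with Alb, Afm and Gc, which encodes the vitamin D-binding protein. Alb differed by -0.21 and -0.08 on the log2 scale and Gc by -0.45 and -0.53, but Gc was called lower at both time points under median-ratio scaling (-1.17 and -1.21) and after 7 days under upper-quartile scaling (-1.01). Afm, the gene of afamin, a vitamin E carrier, had 25.3 CPM in the OGT-KO-labelled library and 169 CPM in the control with no recovery, and 91.8 and 183 CPM after 7 days. Its log2 differences of -2.70 and -0.99 were opposite in sign to those of Afp, and the second was called under both other scalings (-1.47 with upper quartiles and -1.67 with median ratios). Afm was higher after recovery by 1.82 in the OGT-KO-labelled libraries, close to the 1.84 of Afp. Of the glypicans related to Gpc3, Gpc1 differed by 0.87 and 1.02 and Gpc4 by -0.12 and -0.10, and neither was called under median-ratio scaling. Ly6a, a relative of Ly6d, differed by 1.90 and 2.20, and Ly6e by 0.99 and 1.69.

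Among the 7 compared tetraspanins related to Cd63, 5 were called higher with no recovery, where 24.4% of all compared genes were, and 4 after 7 days, where 22.9% were. Under median-ratio scaling 3 were called higher at each time point, where 10.4% and 11.6% of all compared genes were. None was called lower under either scaling. Cd9 differed most, by 3.53 and 3.57, while Cd81 differed by 0.52 and 0.38 and Cd82 by 0.21 and 0.41. The Notch ligands Jag1 and Dll1, relatives of Dlk1, differed by 2.09 and 2.22 and by 1.64 and 1.15, and Jag1 alone was called under median-ratio scaling. Casc4, an older symbol of Golm2, the closest relative of Golm1, lay under the filter, with 13.9 CPM in the OGT-KO-labelled library against 3.25 with no recovery and 15.2 against 3.05 after 7 days. Igf2bp2, a relative of Igf2bp3, had 2.62 CPM against 0.753 and 4.74 against 1.55, and Igf2bp1 had at most 1 read in any library.

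Partners and processing enzymes of the proteins were described next. Of 6 compared, 3 were called higher at each time point on the deposited scale, where 24.4% and 22.9% of all compared genes were. Under median-ratio scaling 0 were called higher with no recovery and 1 after 7 days, where 10.4% and 11.6% of all compared genes were. Notum was called lower at each time point, where 15.4% and 11.8% were. The 3 called higher on the deposited scale were Sulf2, which trims heparan sulfate (1.65 and 1.93), Ext1, which builds it (1.10 and 1.13), and Adam17, a sheddase (1.03 and 1.28). Notum, a lipase that can release glypicans, differed by -0.97 and -0.66, and Furin, a protease that cleaves Golm1 and Gpc3 proteins, by -0.03 and 0.06. Of 12 compared lysosome and exosome genes, the compartment of Cd63, 8 were called higher with no recovery (24.4% of all compared genes) and 5 after 7 days (22.9%). Under median-ratio scaling 2 were called higher at each time point (10.4% and 11.6% of all compared genes), and 1, Lamp2, lower with no recovery (15.4%). Ctsd differed by 1.81 and 1.57 and Lamp1 by 0.30 and 0.12, well below the 5.28 and 4.93 of Cd63. None of 8 compared Golgi residents was called at either time point. Of all compared genes, 24.4% and 22.9% were called higher and 5.69% and 4.27% lower. The median of these residents, 0.26 and 0.22, turned negative under both other scalings. Under median ratios 1, Man1a, was called lower at each time point (15.4% and 11.8% of all compared genes). Golm1, chosen for high CPM labelled OGT-KO, differed by 3.02 and 4.23 on the deposited scale.

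Other genes of fetal liver and liver cancer were listed for comparison, of which 16 of 22 were in the table and 5 passed the filter. Of these 5, 4 were called higher at both time points, where 19.2% of all compared genes were, and also under both other scalings: Tspan8, a tetraspanin (5.07 and 5.02), Epcam (4.68 and 4.64), Spp1, which encodes osteopontin (4.54 and 4.55), and Scd2, a fatty acid desaturase of the fetal liver (4.46 and 4.72). Epcam and Spp1 are also bile duct markers. Tspan8, Epcam and Scd2 had under 10 CPM in each control, so they are compared only through their level in the OGT-KO-labelled libraries. The list was also chosen with earlier results known, so the count is a description. Of all compared genes, 13.5% and 13.6% were called higher at the time points under upper-quartile scaling, and 10.4% and 11.6% under median ratios. Hmga1, a chromatin protein, differed by 0.78 and 0.89. H19, Lin28a, Lin28b, Trim71, Hmga2 and Sall4 were not analysed here.

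**Figure D4:**
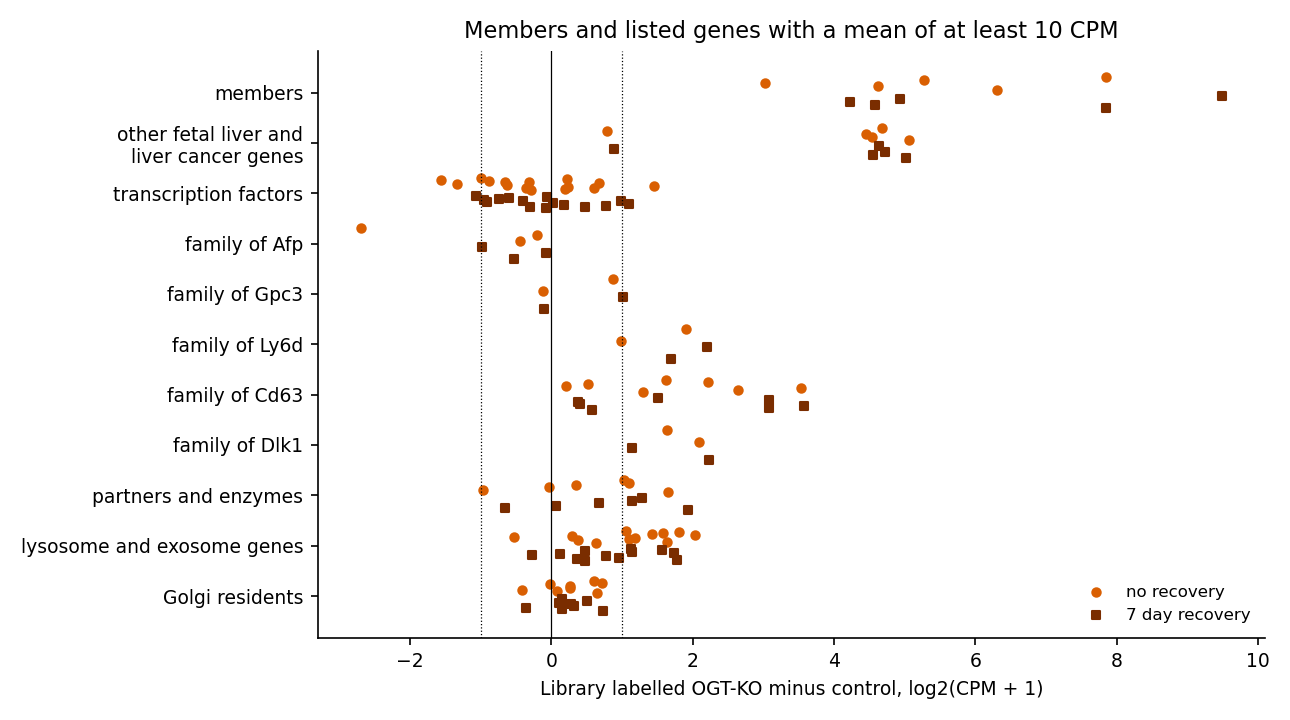
Log2 difference between the OGT-KO-labelled libraries and control (horizontal axis), 1 point per gene averaging 10 CPM or more, for the oncofetal genes (members) and each list, with no recovery and after 7 days, and dotted lines at 2-fold. The 5 oncofetal genes and 4 of the 5 other fetal liver genes lie to the right of 2-fold, and the Golgi residents lie within it.

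Markers of other liver cells differed between the labels too. In bulk tissue, fewer cells of a type and less RNA per cell cannot be told apart, and the part of these cells in the values of the 7 genes was not tested. The liver identity of the samples was clear from the summed hepatocyte markers, at 70895 and 84816 CPM in the OGT-KO-labelled libraries and 96044 and 106497 CPM in the controls, with 5 of 8 markers lower in both OGT-KO-labelled libraries and none higher in both. All 6 bile duct markers were higher in both OGT-KO-labelled libraries, with sums of 1157 and 1469 CPM against 53.9 and 69.9 CPM, a fold of 21.5 and 21.0. All 7 stellate cell and myofibroblast markers were higher, at 2106 and 2546 against 159 and 111 CPM, as were 6 of 7 macrophage markers, at 1064 and 796 against 277 and 102 CPM. All 5 endothelial markers were higher as well, at 267 and 191 against 138 and 99.1 CPM, but under median-ratio scaling Stab2 (-0.08 and -0.07) and Clec4g (-0.28 and -0.08) turned lower at each time point. The counts of higher markers stand beside the 74.4% of all listed genes with both OGT-KO-labelled libraries above both controls. The share of all listed genes lower in both is not given here, so how common the pattern of the 5 of 8 hepatocyte markers was is not known.

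Markers of B cells, plasmacytoid dendritic cells and mesothelium were summed as well, and the part of these cells in the values of Ly6d was not tested. The 3 listed B cell markers summed to 3.63 and 2.22 CPM in the OGT-KO-labelled libraries and 1.32 and 0.901 in the controls, with Ms4a1 and Pax5 not analysed here, and Siglech, a marker of plasmacytoid dendritic cells, had 1.66 and 1.29 against 0.376 and 0.300 CPM. The 4 mesothelial markers summed to 14.1 and 23.5 against 5.41 and 4.81 CPM.

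Set against the markers read for read, the genes fell into different cases. Golm1 had 4.03 and 6.82 reads per 100 bile duct marker reads in the OGT-KO-labelled libraries and 8.996 and 6.30 in the controls, so relative to these markers it was not higher in the OGT-KO-labelled library with no recovery. Per 100 stellate cell and myofibroblast marker reads Golm1 had 2.21 and 3.94 labelled OGT-KO against 3.05 and 3.96. Per 100 macrophage marker reads it had 4.38 and 12.6 against 1.75 and 4.33. Cd63 had 15.7 (15.2 to 16.3) and 8.99 (8.66 to 9.33) reads per 100 bile duct marker reads labelled OGT-KO against 6.90 (5.42 to 8.67) and 4.796 (3.70 to 6.13) in the controls, and the counting intervals did not overlap at either time point. Gpc3 had 3.63 (3.40 to 3.87) and 3.75 (3.54 to 3.97) against 1.40 (0.796 to 2.28) and 1.93 (1.27 to 2.82), also without overlap. Most bile duct marker reads were of Spp1: 22334 of 26451 and 28087 of 33151 labelled OGT-KO, and 871 of 1145 and 1040 of 1397 in the controls. Per 100 Epcam reads, the Gpc3 intervals labelled OGT-KO (60.2 to 70.9 and 62.0 to 71.6) lay within those of the controls (24.9 to 90.6 and 34.4 to 94.1). The Cd63 intervals labelled OGT-KO (267 to 301 and 151 to 169) also lay within those of the controls (158 to 371 and 96.7 to 212). Cd63 had 17.1 and 16.6 reads per 100 macrophage marker reads against 1.34 and 3.29. Afp had 54.7 and 155 reads per 100 bile duct marker reads labelled OGT-KO against 3.23 and 3.08, and Ly6d had 15.8 and 24.9 against 2.45 and 0.859. Dlk1 had 0.480 (0.400 to 0.572) and 0.425 (0.358 to 0.502) against 0 in the controls, whose intervals reach 0.323 and 0.264. Igf2bp3 lay the other way, at 0.439 (0.362 to 0.526) and 0.178 (0.135 to 0.230) labelled OGT-KO. Its controls stood at 1.05 (0.540 to 1.84) and 0.859 (0.443 to 1.51), on 12 reads each. Because the genes were chosen for high CPM labelled OGT-KO, a difference larger than that of the markers, where found, follows from the choice. The part of these cells in the values was not tested.

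**Figure D5:**
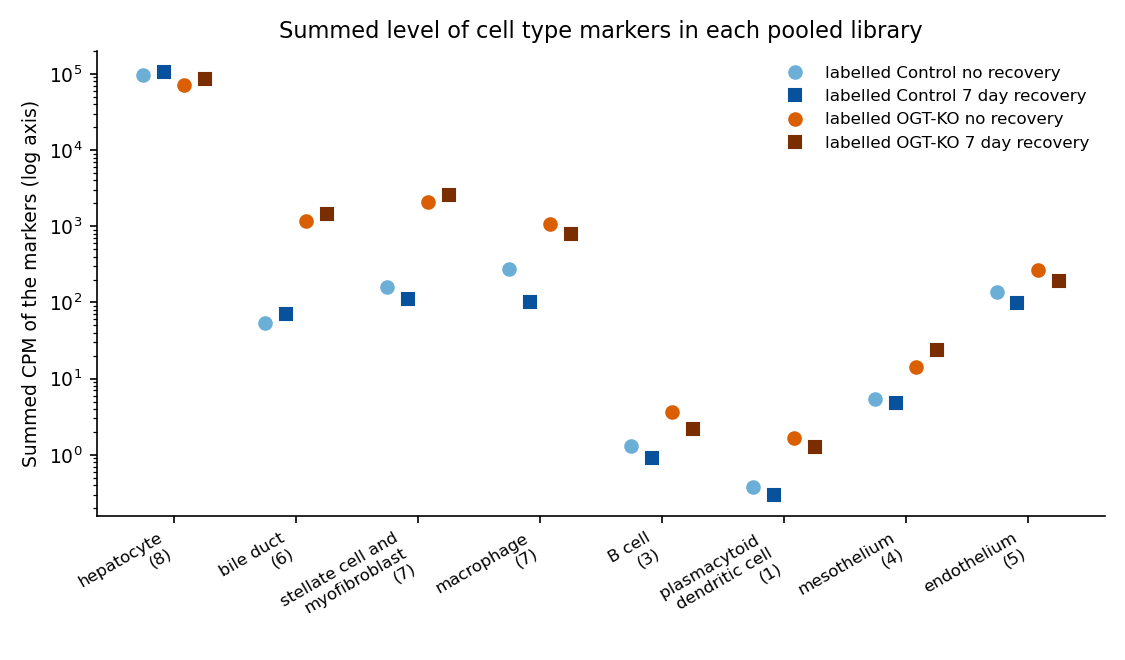
Summed CPM of the markers of each cell type (log axis) in the 4 libraries, 1 point per library. Bile duct and stellate cell markers are higher in both OGT-KO-labelled libraries, summed hepatocyte markers are lower, and B cell and plasmacytoid dendritic cell markers stay below 4 CPM.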

How the data were processed

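mRNA-seq libraries were made from mouse liver RNA (TRIzol, Tecan universal plus mRNA-seq), 1 per condition, each from pooled RNA of 3 mice. The authors deposited 1 table of CPM for the 4 libraries, named for DESeq2 normalization. The submitters' processing notes name STAR, DESeq2 and GRCm39, and the counting step is not given in the sources used here. Every column summed to 1000000 and 100% of values were whole reads within 0.01 read, so reads were recovered by division. Reads on listed genes numbered 22866431 (OGT-KO, no recovery), 21257763 (control, no recovery), 22567395 (OGT-KO, 7 day recovery) and 19972699 (control, 7 day recovery).

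Differences are of log2(CPM + 1), called at 2-fold over the 8963 genes averaging 10 CPM or more. CPM ratios carry 95% exact (Clopper-Pearson) intervals, which cover counting error only. With 1 library per condition no p-value for the conditions was computed. The members and lists were chosen with earlier results of these data known. Named genes were all 7 members, any gene of the lists with the largest and smallest differences first, the 2 nearest patterns of each member, and Ogt. Transcript lengths came from GENCODE M21 (GRCm38) and promoter windows from RefSeq (GRCm38.p6), neither of the build of the files, so coordinates are given only for the promoter windows, on the build of their table.

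Results were recomputed with pseudocounts of 0.1 and 10, with no filter, with a filter at 50 CPM, with upper-quartile or median-ratio scaling, with a 4-fold threshold, and with an exact binomial test of the reads with Benjamini-Hochberg adjustment, which compares libraries and not conditions. Steps were tested on simulated reads. Python 3.11 was used with numpy 2.4.6, pandas 2.3.3, scipy 1.17.1 and matplotlib 3.10.9.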

Additional observations from a re-analysis of the deposited data

Results flagged for a closer look

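Some values moved one way in the OGT-KO-labelled libraries and the other way in the controls. With 1 library per condition, none of these differences was tested.

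After the 7 day recovery, Ly6d was higher by 0.9996 on the log2(CPM + 1) scale in the OGT-KO-labelled libraries and lower by 0.53 in the controls, where it had 28 and 12 reads. Golm1 was higher by 1.09 labelled OGT-KO and stood at -0.11 in the controls. Igf2bp3 stood at -0.75 labelled OGT-KO and at 0.03 in the controls, which held 12 reads each.

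Ogt itself differed between the labels by -0.22 with no recovery and by 0.47 after 7 days, where the medians of all compared genes were 0.51 and 0.48. After recovery Ogt stood at 0.48 labelled OGT-KO and at -0.21 in the controls. The summed stellate cell and myofibroblast markers were 1.21 times their level with no recovery in the OGT-KO-labelled libraries and 0.701 times in the controls. For the summed mesothelial markers these folds were 1.67 and 0.888.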

How the results depend on the processing

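Of the 56 differences of the 7 genes between the labels recomputed under other settings, all 56 were above 0 and 50 were at least 1 on the log2 scale. Those under 1 were Dlk1 (0.64 and 0.70) and Igf2bp3 (0.51 and 0.25) with a pseudocount of 10, and Igf2bp3 after 7 days with upper-quartile (0.91) and median-ratio (0.80) scaling. The genes were chosen for high CPM labelled OGT-KO and each setting reuses the same libraries, so the signs follow from the choice. With these pseudocounts and scalings, 10.4% to 25.8% of all compared genes were called higher with no recovery and 11.6% to 24% after 7 days. With a mean of at least 50 CPM, the genes called higher fell from 5 to 3 at each time point, because Gpc3 and Golm1 lay under that filter. The 2 called after recovery labelled OGT-KO became 1 with a pseudocount of 10 and with a mean of at least 50 CPM, and 0 at 4-fold, but 3, with Ly6d, under a pseudocount of 0.1 and both other scalings. In the controls 1, Ly6d, was called with a pseudocount of 0.1. The 3 past 2-fold for the change between time points became 0 at 4-fold.

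Of the other listed genes, 20 of 62 compared were higher at both time points, where 19.2% of all compared genes were, and 0 were lower. The share of all genes lower at both time points, and the shares under the settings that follow, are not given here. The higher ones numbered 39 with no filter, 9 with a mean of at least 50 CPM, 10 with median-ratio scaling and 8 at 4-fold, and the lower ones 7 with upper-quartile and 10 with median-ratio scaling. Over all compared genes, the 2185 and 2050 higher labelled OGT-KO with no recovery and after 7 days became 1367 and 1344 with a pseudocount of 10, 4595 and 4492 with no filter, 525 and 503 with a mean of at least 50 CPM, and 691 and 788 at 4-fold. No filter left 13903 genes and the 50 CPM filter 3220. The shares were 33.1% and 32.3% with no filter and 16.3% and 15.6% at 50 CPM, against 24.4% and 22.9% of the 8963. The 93 higher after recovery labelled OGT-KO became 39 with a pseudocount of 10, 178 with no filter, 40 at 50 CPM and 7 at 4-fold. In the same order, the 187 past 2-fold between the time points became 54, 351, 73 and 9. The 22 higher and 86 lower after recovery in the controls became 35 and 130 with a pseudocount of 0.1, 12 and 21 with one of 10, 11 and 31 with a mean of at least 50 CPM, and 3 and 2 at 4-fold, and 134 were lower with no filter. In the comparisons of 2 libraries, each of the 8963 compared genes past 2-fold also passed the exact binomial test, which was not run on the change between time points or without the filter.

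No paired analysis was possible because each condition has 1 library, and no library was left out, since none would then remain for its condition. Control values of the 7 genes rest on 0 to 103 reads, which limits every ratio.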

Other observations

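Several further fetal liver genes lay under the filter of 10 CPM on the mean and are given as values. Igf2, a fetal growth factor whose mRNA Igf2bp3 binds, had 10 and 66 reads (0.437 and 2.92 CPM) in the OGT-KO-labelled libraries with no recovery and after 7 days and 0 reads in both controls. Mdk, a heparin-binding growth factor, had 10.98 and 10.4 CPM labelled OGT-KO against 0.565 and 0.751 CPM. Plagl1, an imprinted zinc-finger gene, had 10.6 and 14.8 against 1.08 and 1.60 CPM, and Mest, also imprinted, had 11.7 and 14.8 against 4.56 and 3.15 CPM. Bex1 had 2.41 and 5.10 against 0.188 and 0.1001 CPM. Tff3, a trefoil peptide, lay the other way, at 0.875 and 0.354 CPM labelled OGT-KO against 1.03 and 1.502 CPM in the controls. Spink1 had 1.31 and 1.55 CPM against 0.188 and 0.200 CPM.

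Timp1, a metalloprotease inhibitor listed among the partners, had 20.8 and 15.3 CPM labelled OGT-KO against 0.188 and 0.300 CPM, and its mean was also under the filter. Igf1r, a receptor of Igf2, had 16.7 and 18.3 CPM against 2.31 and 1.65 CPM.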
